A study of Mus musculus with 4 samples.

Results

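Runs of closely spaced CTCF peaks were taken from the peak list of wild-type mouse gastruloids, which are cultured stem cell aggregates that elongate and lay down an axis like that of an embryo. Where several summits shared an interval, they were reduced to the one of highest −log10 q, and chromosomes 1 to 19 without chromosome 11 were kept. A peak was a member where it lay in a run of 3 or more consecutive peaks whose neighbouring summits were 10 kb or less apart. Of 44362 wild-type peaks, 9549 (21.5%) were such run peaks, and they formed 2558 runs. They were set against 5113 isolated peaks (11.5%), whose nearest neighbour was more than 50 kb away. Positions of wild-type summits chose both sets, so spacing, run size and wild-type peak values are descriptions without a test, while calls in the other libraries were not used by the choice.

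There were 4 ChIPmentation libraries, which is chromatin immunoprecipitation with adapters added by the transposase Tn5 on the beads, from gastruloids pooled at 96 h after aggregation. They were CTCF in wild type, CTCF in HoxB Del/Del(i9-13) with Ins(CBS5-10), here InsCBS5-10, CTCF in the same genotype with Del(CBS7-10) added, here DelCBS7-10, and RAD21 in InsCBS5-10. Both mutants carry a deleted HoxB copy, and their other copy lacks the interval i9-13 and carries inserted CTCF binding sites, of which DelCBS7-10 has lost sites 7 to 10. All these edits lie on chromosome 11, outside the chromosomes used here. Each group had 1 library, so no difference between genotypes has a replicate check, and no p-value is given. The labels do not say whether each mutant line is 1 clone.

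CTCF is a zinc finger protein that binds DNA in one orientation and stops cohesin, the ring complex that extrudes chromatin loops. RAD21 is a subunit of that ring, so a RAD21 peak at a CTCF peak marks a place where cohesin is held. Closely spaced CTCF sites are known at domain borders, at protocadherin promoters and in Hox clusters, where several sites in a row can hold cohesin in turn.

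A run with nearly even spacing lay over the interferon zeta genes on chromosome 4, and the sequence shared by its copies is shown first. Ifnz, a type I interferon, and 11 neighbouring predicted genes have their starts along a run of 12 peaks whose summits ran from 88773932 to 88806134. The RefSeq promoter windows (GRCm38.p6, the assembly that mm10 names) of 6 of these genes held a pair of matches to the 13-letter CTCF core motif, and this 63-base stretch was identical in all 6 copies. It is printed once, from chr4:88773771-88773833 on the plus strand, just before the annotated start of Gm13290. Capitals mark the matches, and motif searches covered both strands and allowed 1 mismatch.

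Gm13290 copy: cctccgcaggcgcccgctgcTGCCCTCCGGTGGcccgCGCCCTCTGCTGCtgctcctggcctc

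Of these copies, those at Gm13290, Gm13289 and Gm13272 followed each other at 2928 bp and 2928 bp, and those at Gm13279, Gm13285 and Gm13287 at 2923 bp and 2934 bp. The middle of the pair lay between 58 and 136 bp from the wild-type summit. In 3 copies the window reached further, and held another match with 2 mismatches at 18 to 31 bp from the summit, shown for Gm13272 at chr4:88779802-88779830.

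Gm13272 inner match: ccctcgcgCTCCCCCTGCAGGccagcccc

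Every one of the 12 wild-type peaks of this array was also called in both mutant CTCF lists, and RAD21 was called at none. Over all wild-type peaks, 57.7% were called in both mutants and 38.9% had RAD21. Fold enrichment, the deposited ratio of a library's summit signal to its own local background, was 5.80 to 10.9 in wild type. In InsCBS5-10 it was 3.74 to 8.88, and in DelCBS7-10 3.51 to 8.18. The peak at Gm13279 was the lowest in wild type and in DelCBS7-10, and the next to lowest in InsCBS5-10. Neighbouring summits were 2.93 kb apart on average (2.86 to 3.0 kb), a standard deviation of 0.0139 of the mean. The nearest RAD21 summits lay 35.2 kb before the run, at a fold enrichment of 9.38, and 61.4 kb beyond it, at 6.91. This run was among those named for calls in both mutants, and its spacing was singled out after the values were seen. Whether reads can be placed uniquely in copies this alike was not tested.

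**Figure D1:**
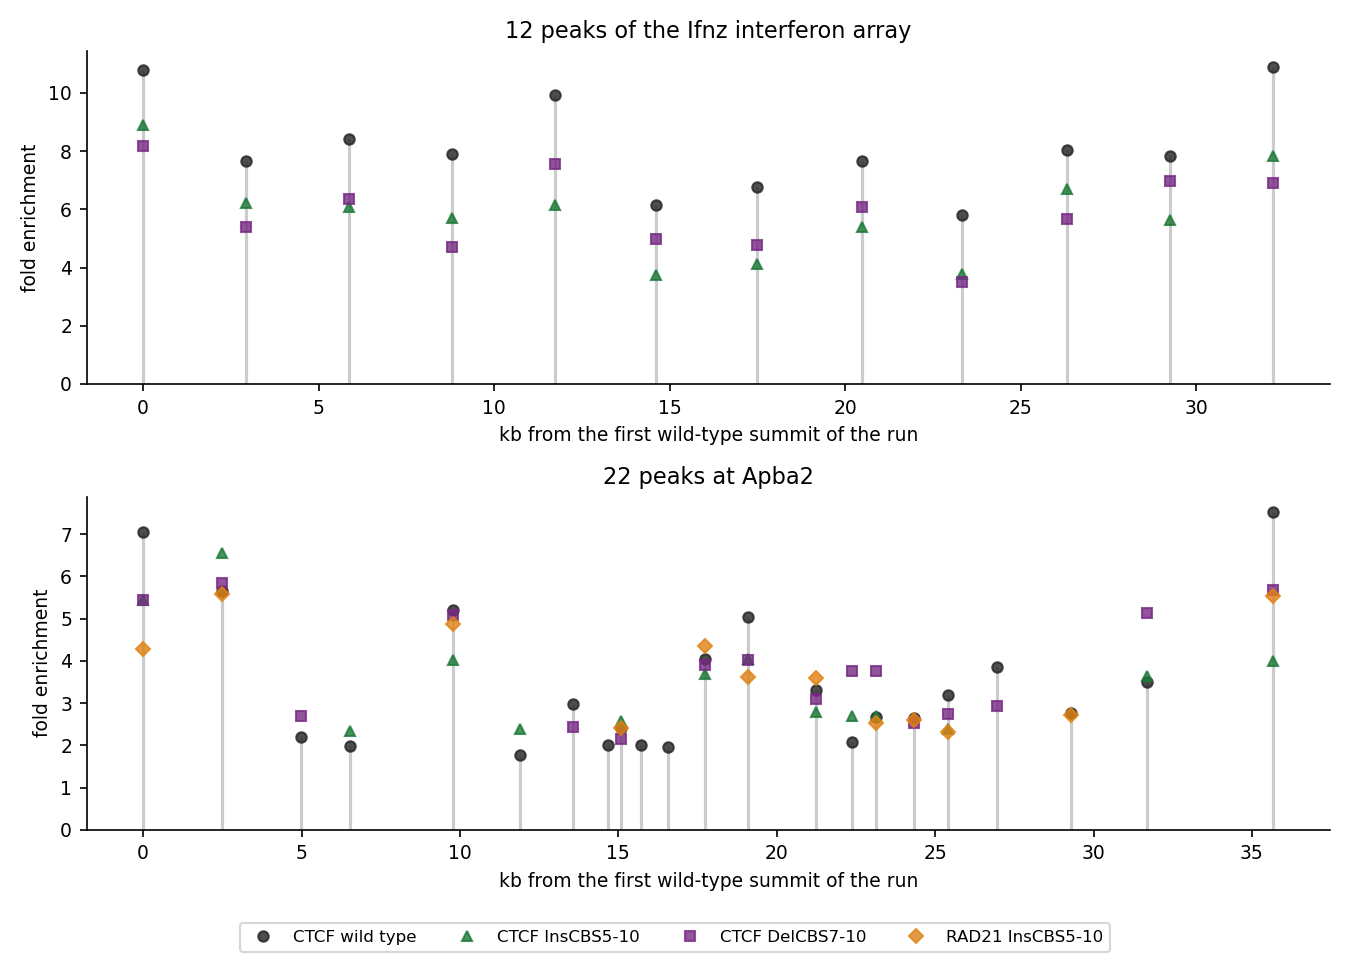
Fold enrichment of each list against distance in kb from the first wild-type summit, at the Ifnz array and at Apba2. Grey lines mark wild-type peaks and a missing symbol means that no peak was called. The 12 array peaks have CTCF symbols of all 3 genotypes and no RAD21 symbol, while Apba2 has RAD21 at 12 of 22 peaks.

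Most runs were short and compact. There were 1621 runs of 3 peaks (63.4% of runs), 558 of 4, 204 of 5 and 70 of 6, and 33 runs held 10 or more, up to 29. The median run spanned 11.8 kb (quartiles 8.18 and 16.1 kb), the shortest 0.849 kb and the longest 125 kb, and all spans added to 33.5 Mb. Within runs the median distance between neighbouring summits was 4.81 kb, and 9.47% of distances were under 1 kb. Over all wild-type peaks the median distance was 22.9 kb, and 27.7% of neighbouring summits were 10 kb or less apart. The share of a chromosome's peaks in runs went from 14.5% on chromosome 16 to 27.3% on chromosome 5.

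**Figure D2:**
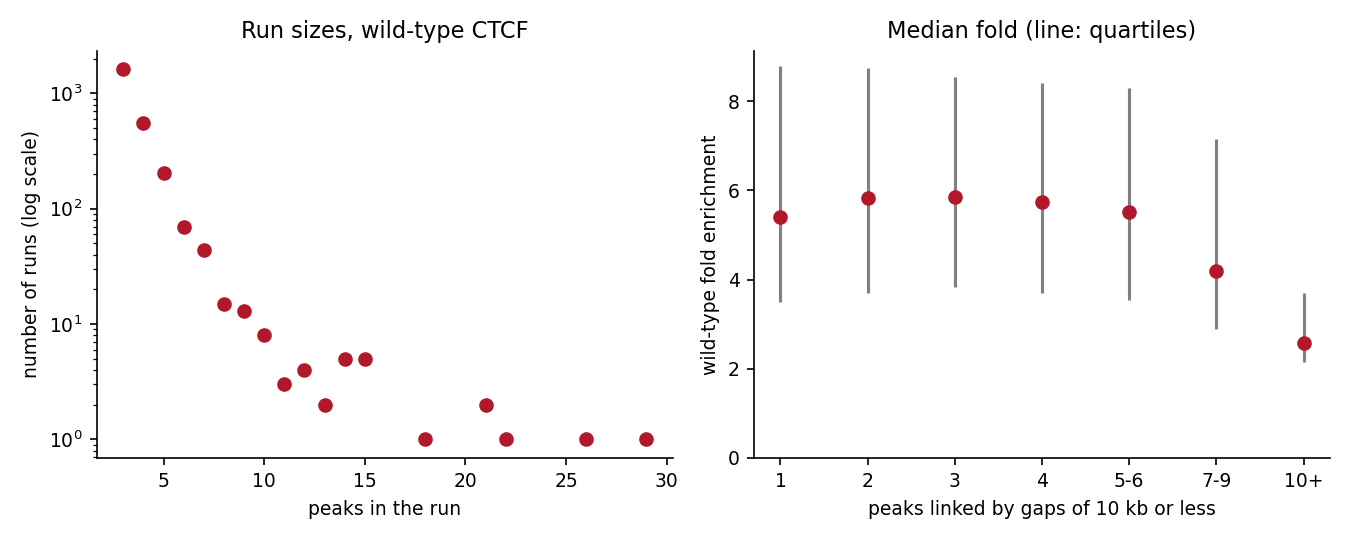
Left, number of runs (log axis) against peaks per run, from 1621 runs of 3 peaks to 1 run of 29. Right, median wild-type fold enrichment with quartile lines against the number of linked peaks, which is 5.86 for runs of 3 and 2.58 for runs of 10 or more.

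Run peaks were stronger than isolated ones, which describes the list the rule read. Median fold enrichment was 5.49 (quartiles 3.54 and 8.28) in runs and 4.57 at isolated peaks, against 5.53 over all peaks. The median −log10 q, the deposited measure of confidence, was 17.0 in runs, 7.26 at isolated peaks and 13.4 over all. Intervals with several summits made up 6.74% of run peaks and 3.42% of isolated peaks. At the edge of the rule, the 2248 peaks of runs whose widest gap was 9 to 10 kb had a median fold enrichment of 5.77. The 1302 peaks that would form runs only at 11 kb had 5.90.

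Run peaks were called again in the mutants more often than isolated peaks. A peak counted as found where a peak of the other list overlapped it by 1 bp or more. InsCBS5-10 held 67.9% of run peaks (exact 95% interval 67.0 to 68.8), against 49.7% of isolated peaks (48.3 to 51.1) and 63.0% of all wild-type peaks. DelCBS7-10 held 70.1% of run peaks, 53.1% of isolated peaks and 65.8% of all. Both mutants held 61.7% of run peaks and 44.7% of isolated peaks (57.7% of all). Neither held 23.7% and 41.9% (28.9% of all). The differences from isolated peaks were 18.2 percentage points in InsCBS5-10 and 17.0 in DelCBS7-10. Shares close to those of runs were not particular to runs. Peaks linked only in pairs at 10 kb or less were found in 66.0% (InsCBS5-10) and 69.1% (DelCBS7-10). The 1302 peaks that would form runs only at 11 kb were found in 65.7% and 69.9%. These intervals cover counting error only, and neighbouring peaks of a run are not replicates. Run peaks that shared 1 wider mutant peak with another run peak made up 2.33% of those found in InsCBS5-10 and 2.72% in DelCBS7-10.

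The size of this difference moved with the measure of strength held equal. Within 10 classes (deciles) of wild-type fold enrichment, weighted by the run peaks in each, it was 10.3 percentage points in InsCBS5-10 and 9.49 in DelCBS7-10. Within 10 classes of −log10 q it was 0.768 and 0.315 percentage points. In the lowest fold class 20.3% of run peaks and 2.19% of isolated peaks were found in InsCBS5-10, and in the highest 99.2% and 97.8%. At the same fold, run peaks had the higher −log10 q: in the fifth fold class its median was 12.7 in runs and 9.09 at isolated peaks.

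RAD21 gave another picture. Its peaks in InsCBS5-10 covered 38.1% of run peaks (37.1 to 39.1), 35.2% of isolated peaks (33.9 to 36.5) and 38.9% of all wild-type peaks, so the share in runs was close to that of the whole list. Averaged over classes of equal strength the order turned: the difference of 2.90 percentage points became -3.58 within fold classes and -12.8 within classes of −log10 q. In the 3 strongest fold classes RAD21 was called at 70.4% of 2619 run peaks (68.6 to 72.2) and at 83.4% of 1139 isolated peaks (81.1 to 85.5). Median fold enrichment was 10.1 in both of these sets. In the 3 weakest classes the order was the other way, with 12.5% against 1.88%, 12.4% against 1.3% and 13.9% against 8.85%.

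The gap among strong peaks was also present away from promoters. Of those more than 1 kb from a transcription start, 72.5% in runs and 84.2% of isolated ones had RAD21. Within 1 kb of a start the shares were 49.6% of 280 run peaks (43.6 to 55.7) and 69.5% of 82 isolated peaks (58.4 to 79.2). Starts on chromosome 18 were not used here. Both libraries compared at this step differ in genotype and antibody, so RAD21 of a mutant was set against CTCF of wild type. Where CTCF was found in InsCBS5-10 itself, RAD21 was called at 49.8% of 6485 run peaks (48.6 to 51.0) at 61.8% of 2542 isolated peaks (59.9 to 63.7) and at 55.3% of all 27944 such peaks. Where CTCF was not found there, the order was the other way, with 13.3% of 3064 run peaks (12.1 to 14.5) and 8.83% of 2571 isolated peaks (7.76 to 9.99).

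**Figure D3:**
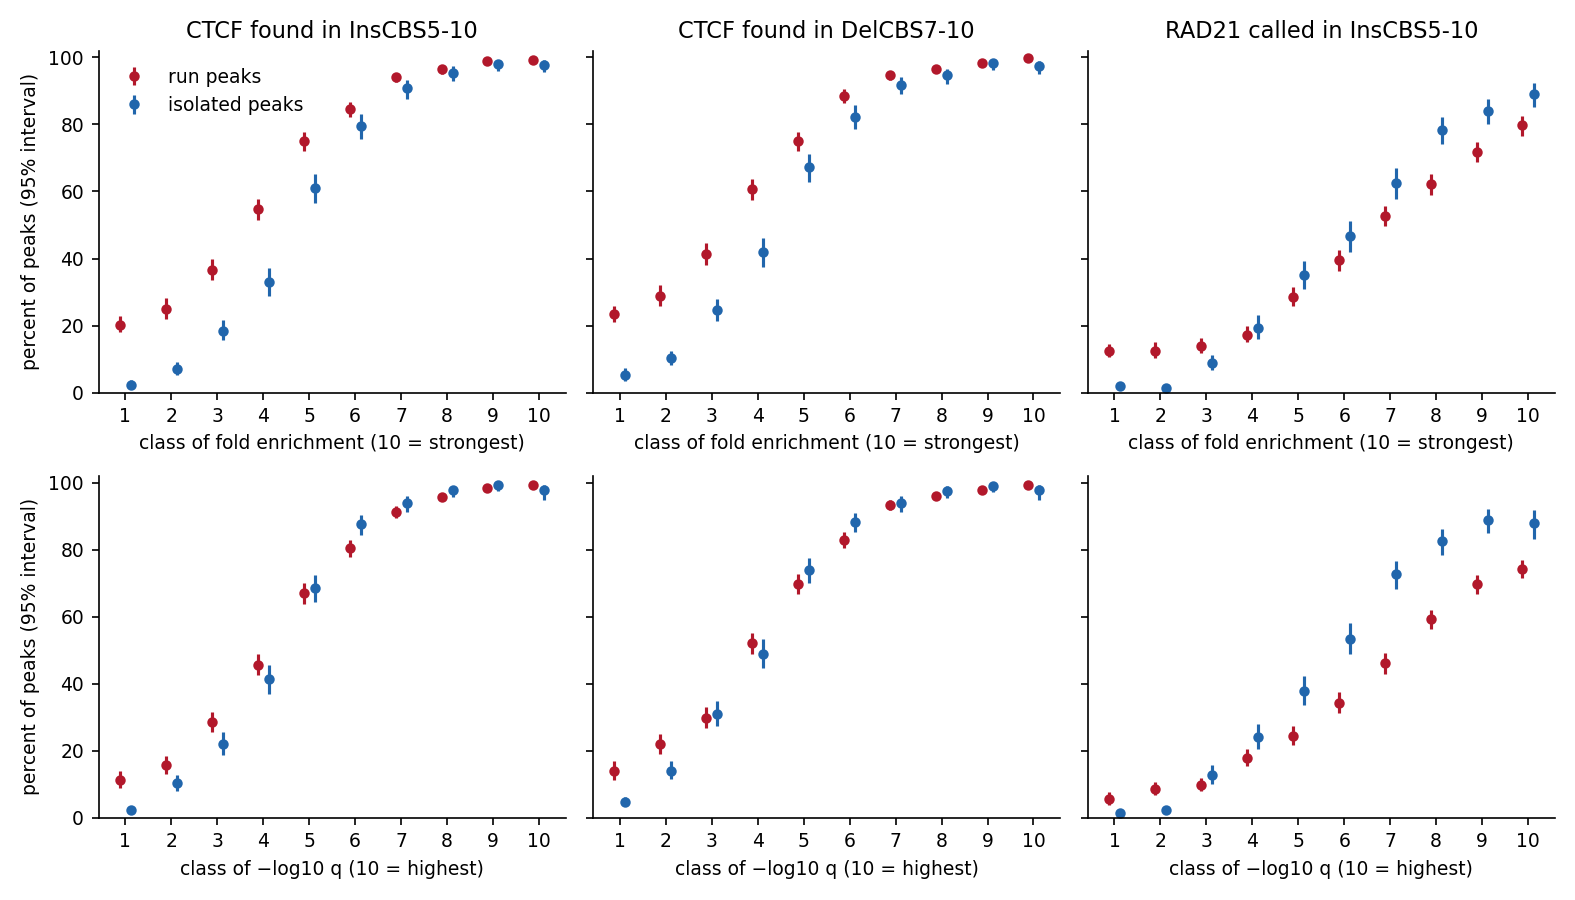
Percent of run peaks (red) and isolated peaks (blue) with a call in each other list, with exact 95% intervals, in 10 classes of wild-type fold enrichment (upper row) and of −log10 q (lower row). Both CTCF lists separate the colours by fold class and bring them closer by −log10 q class, where the order turns between classes. RAD21 is lower in runs from the middle classes upward in both rows.

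Within a run, RAD21 was called most often at the strongest CTCF peak. The strongest peak of each run had a median fold enrichment of 9.32 and carried RAD21 in 63.7% of 2558 runs. The second had 6.42 and 40.9%, the third 4.1 and 23.9%, and the weaker ones 3.25 and 18.8%. In the mutants the same ranks were found in 90.7%, 77.3%, 53.3% and 44.0% of cases in InsCBS5-10, and in 91.1%, 78.9%, 56.5% and 48.1% in DelCBS7-10. Position in the run made less difference, with RAD21 at 38.6% of the outermost and 37.5% of the inner peaks. Rank was not separated from strength. RAD21 was called at 12.5% of run peaks in the lowest fold class and at 79.7% in the highest, and at 1.88% and 89.1% of isolated peaks. In the class of folds 7.96 to 9.44 the shares were 62.1% of run peaks and 78.4% of isolated peaks.

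Counted by run, RAD21 was absent from the calls of 478 runs (18.7%), at exactly 1 peak of 961 (37.6%) and at 2 or more peaks of 1119 (43.7%). All peaks carried it in 122 runs (4.77%). Where a single peak had RAD21, it was the strongest of its run in 651 cases (67.7%), with strength not matched. Runs of 5 or more peaks without any RAD21 call numbered 39. Every peak was found in InsCBS5-10 in 793 runs (31.0%), in DelCBS7-10 in 882 (34.5%) and in both in 599 (23.4%), and 56 runs (2.19%) had no peak in either mutant.

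The same rule applied to the other lists gave 1538 runs in InsCBS5-10, 1688 in DelCBS7-10 and 310 for RAD21, with 17.1%, 17.7% and 5.59% of the peaks of those lists. Of the wild-type runs, 48.3% overlapped a run of InsCBS5-10, and 80.8% of the InsCBS5-10 runs overlapped a wild-type run. For DelCBS7-10 the shares were 51.6% and 78.9%. Inside wild-type run spans, 4.95% of InsCBS5-10 peaks and 4.47% of DelCBS7-10 peaks had no wild-type peak, against 12.5% and 14.2% over all chromosomes used. The spans were chosen as dense in wild-type peaks, so a low share there follows from the rule.

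Peaks of the largest runs were weaker at the median. Of the 33 runs of 10 or more peaks, 21 had a median fold enrichment under 3, and the 12 others included the Ifnz array and a protocadherin run. Runs of 7 to 9 peaks had a median fold enrichment of 4.19 and runs of 10 or more had 2.58, where 63.3% of the 469 peaks were under 3. The share found fell from 69.5% in runs of 3 to 46.7% in runs of 10 or more in InsCBS5-10, and from 71.7% to 51.6% in DelCBS7-10. RAD21 was called at 40.0% and 29.4%. Weak peaks of large runs had more confidence than single ones of the same fold: between a fold of 2 and 2.5 the median −log10 q was 1.51 without a neighbour and 3.41 in runs of 10 or more.

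**Figure D4:**
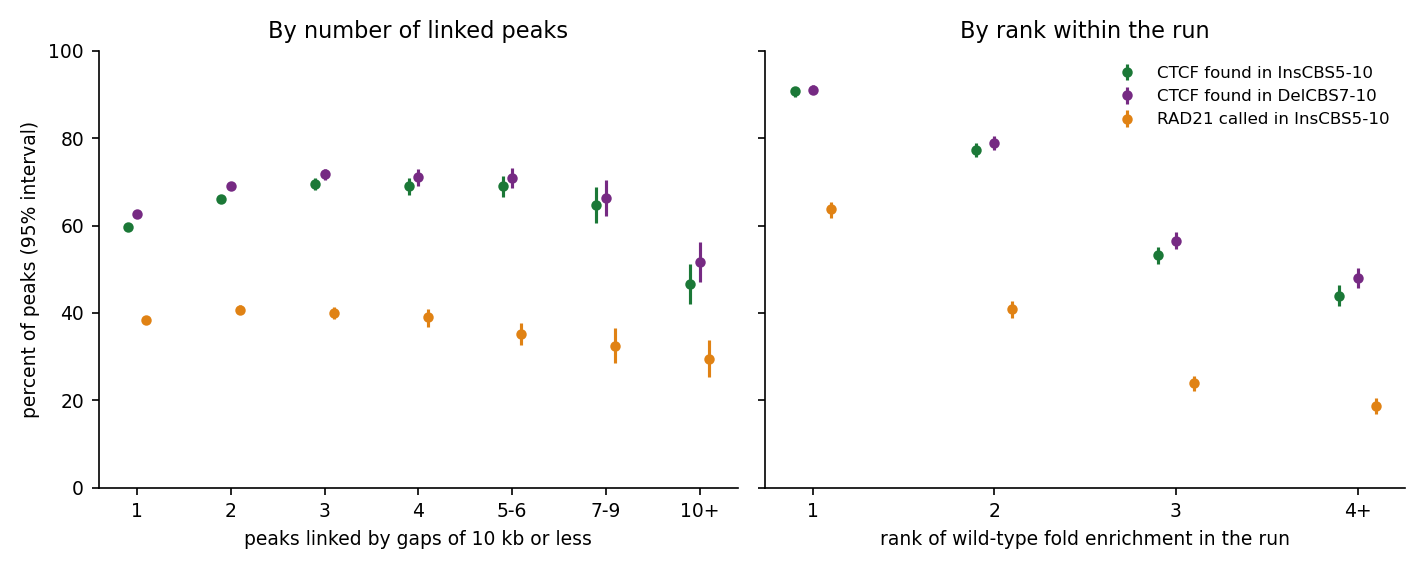
Percent of wild-type peaks with a call in each other list, with exact 95% intervals, against the number of linked peaks (left) and the rank of fold enrichment within the run (right). Shares fall in runs of 10 or more, to 46.7%, 51.6% and 29.4%, and fall with rank in all 3 lists.

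Many of these large runs lay in a few stretches. When runs of 5 or more peaks that lay up to 500 kb apart were joined, smaller runs left out, the 6 fullest stretches held 479 peaks in 46 runs, and 21 of the 33 runs of 10 or more. The fullest, on chromosome 8 from 19681347 to 21018954, held 153 peaks in 13 such runs. These lay at or near genes such as 4930467E23Rik, Gm40469 and Gm21119. Some lay nearest to the defensin genes Defb33 and Defa21, which encode antimicrobial peptides. This stretch had a median fold enrichment of 2.25, with 41.2% of peaks in InsCBS5-10, 42.5% in DelCBS7-10 and RAD21 at 28.8%. It contained the runs of 29 and 26 peaks, at or next to the predicted gene Gm21119. The next stretch, on chromosome 1 from 84987394 to 85631656, held 87 peaks in 8 such runs. They lay at or near genes such as A530032D15Rik, Gm38510 and Gm7592. Of these runs only the last, of 13 peaks, overlapped Sp110 and Sp140, which encode nuclear body proteins. A stretch of 75 peaks on chromosome 5 covered the Speer4e region, and 2 on chromosome 4 covered zinc finger genes such as Zfp978, Zfp982 and Zfp990. Median folds in these 4 were 2.17 to 2.95. The sixth, with 46 peaks as in the smaller one on chromosome 4, covered the clustered protocadherins of chromosome 18 and differed, with a median fold of 5.24, 76.1% of peaks in InsCBS5-10 and 91.3% in DelCBS7-10. Copy number and repeat content were not tested. Runs whose median fold enrichment was 3 or more, 8612 peaks, were found in 71.5% (InsCBS5-10) and 74.0% (DelCBS7-10) and had RAD21 at 39.5%.

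A large run outside these stretches lay at Apba2, which encodes a neuronal adapter protein. Its 22 peaks covered 35.7 kb of chromosome 7, with fold enrichment from 1.76 to 7.51. InsCBS5-10 held 14 of them, DelCBS7-10 16 and RAD21 12. Its outermost peaks, at 7.04 and 7.51, were the strongest in wild type and were found in every list. Runs near Gm40035 on chromosome 2 had RAD21 at 8 of 8 peaks, and near Alkbh8 on chromosome 9 at 8 of 9. The latter run begins at 3000553, close to the assembled start of its chromosome, and had a median −log10 q of 1858. Its intervals were wide, with the fifth from 3011548 to 3022716, against a median width of 312 bp for run peaks. Folds there were alike for both antibodies. At the first peak they were 8.46 in wild type, 8.49 in InsCBS5-10, 8.51 in DelCBS7-10 and 7.80 for RAD21. At the fifth they were 3.98, 3.93, 4.00 and 3.69. Whether its RAD21 calls reflect cohesin at CTCF sites was not tested.

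Genes inside runs were counted next. A protein-coding gene overlapped 1695 runs (66.3%), exactly 1 gene in 1324 and 2 or more in 371, and 707 runs (27.6%) lay within a single gene. A transcription start fell inside 769 of 2485 runs outside chromosome 18 (30.9%). By peak, 47.7% of run peaks were in a gene, against 38.0% of isolated peaks and 47.8% of all. Within 1 kb of a start lay 8.38% of run peaks, 4.22% of isolated peaks and 7.47% of all. Run peaks at starts had RAD21 in 27.3% of 777 cases and isolated peaks at starts in 37.7% of 207, against 29.6% of all 3205 peaks at starts.

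The CTCF core motif was about as frequent in promoter windows under run peaks as under other wild-type peaks. A match with at most 1 mismatch was in 35.6% of 323 promoter windows with a run-peak summit, in 35.9% of 78 with an isolated summit, in 32.8% of 1427 with any wild-type summit, and in 3.13% of all 29107 windows of 300 bases. With 2 mismatches allowed the shares were 68.4%, 66.7%, 68.0% and 19.4%, in the same order. A match is a description and not a proven site. The windows of the 6 strongest run peaks among those with a match, outside the Ifnz array (RefSeq, GRCm38.p6, gene strand) are printed around their matches, in capitals, to show the sequence under peaks that differ in RAD21.

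Cbl: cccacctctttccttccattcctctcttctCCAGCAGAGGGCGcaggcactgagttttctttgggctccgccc
Fitm2: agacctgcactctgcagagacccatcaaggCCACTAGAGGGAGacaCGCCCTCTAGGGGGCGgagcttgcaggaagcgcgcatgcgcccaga
Snai1: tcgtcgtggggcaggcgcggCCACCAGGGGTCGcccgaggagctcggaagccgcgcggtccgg
Get1: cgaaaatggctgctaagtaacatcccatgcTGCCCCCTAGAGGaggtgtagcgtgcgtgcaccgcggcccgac
H13: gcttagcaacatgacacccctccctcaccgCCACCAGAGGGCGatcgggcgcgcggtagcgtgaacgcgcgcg
Khk: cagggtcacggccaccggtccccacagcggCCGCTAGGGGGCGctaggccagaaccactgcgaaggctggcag

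Cbl encodes a ubiquitin ligase (chr9:44234214-44234286, minus strand), and its wild-type peak had a fold enrichment of 18.9, with 7.35 in InsCBS5-10, 8.04 in DelCBS7-10 and no RAD21 call. Fitm2, a lipid droplet gene (chr2:163472663-163472754, minus strand), had 17.9, 9.03 and 10.0, with RAD21 at 3.53, over 3 matches of which 2 overlap. Snai1, a repressor of epithelial genes (chr2:167537945-167538007, plus strand), had 15.6, 7.40 and 8.41, with RAD21 at 7.65. Matches lay 2 to 12 bp from the summit at Cbl, Fitm2, Get1, H13 and Khk and 75 bp away at Snai1. Get1, which inserts tail-anchored proteins into membranes (chr16:96145184-96145256), had 15.3, 5.38 and 8.95, with RAD21 at 4.85. H13, a signal peptide peptidase (chr2:152669360-152669432), had 15.2, 7.64 and 6.07 and no RAD21. Khk, the kinase that starts fructose breakdown (chr5:30921405-30921477), had 14.6, 7.67 and 6.78 and no RAD21. All 6 were found in both mutants, and RAD21 was called at 3 of them. In the strongest fold class 99.2% of run peaks were found in InsCBS5-10 and 99.7% in DelCBS7-10. Of 280 run peaks of the 3 strongest classes within 1 kb of a start, 49.6% had RAD21. These counts are thus not particular to the 6 peaks.

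Clustered protocadherins, cell surface proteins chosen promoter by promoter with the help of CTCF, had 45 of 58 genes in runs. A gene counted where its body overlapped a run, so a single run could count many genes. The bodies of Pcdhga1 to Pcdhgb2 overlapped both runs named below. Gene counts of this and the following lists are to be read beside the 11% of 19052 protein-coding genes that overlapped a run. The 58 peaks of the 9 protocadherin runs had a median fold enrichment of 5.24. InsCBS5-10 held 46 (79.3%), DelCBS7-10 53 (91.4%) and RAD21 22 (37.9%), against 63.0%, 65.8% and 38.9% of all wild-type peaks. The longest, on chromosome 18 from 37707019 to 37772084, had 12 peaks of fold 3.76 to 14.1. It was overlapped by gene bodies listed from Pcdhga1 to Pcdhga12. Of its peaks InsCBS5-10 held 9, DelCBS7-10 11 and RAD21 5. Its strongest peak, at 14.1, had 9.85, 11.3 and 8.22 in the other lists. The run before it, from 37655578 to 37694313 and overlapped by Pcdhga1 to Pcdhgb2, had all 7 peaks in both mutants and RAD21 at 3.

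Among Hox genes of HoxA, HoxC and HoxD, which set position along the body axis, runs occurred at HoxD only, with 5 of 33 genes. The run from Evx2 to Hoxd13 had wild-type folds of 5.22, 5.38, 7.79 and 13.2. InsCBS5-10 held the third (4.01) and DelCBS7-10 the first (4.99) and the third (4.57). RAD21 was called at the second (7.89), the third (3.85) and the fourth (7.85). The fourth, at chr2:74672947-74673372 between Hoxd13 and Hoxd12, was thus missing from both mutant CTCF lists and had RAD21. It was the only one of 753 run peaks in the strongest fold class that both mutants lacked, against 7 of 322 isolated peaks of that class, of which 0 had RAD21. This count was made after the values were seen.

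The run from Hoxd11 to Hoxd9 had wild-type folds of 9.52, 6.23, 6.90 and 9.06. Its second peak, in Hoxd10, had no CTCF call in either mutant and RAD21 at 13.4. The other 3 were found in both, at 7.51, 6.73 and 10.7 in InsCBS5-10 and at 3.84, 5.04 and 6.78 in DelCBS7-10. So 3 of the 8 HoxD run peaks lacked CTCF in both mutants and all 3 had RAD21 in InsCBS5-10. Neither mutant held 23.7% of all run peaks and 28.9% of all wild-type peaks. Of the 8, InsCBS5-10 held 50.0%, DelCBS7-10 62.5% and RAD21 62.5%, against 63.0%, 65.8% and 38.9% of all wild-type peaks. InsCBS5-10 itself lacked CTCF at 4 of the 8, of which RAD21 was called at 3 and not at the first peak of the Evx2 run. Of all 3064 run peaks that lacked CTCF there, 13.3% had RAD21. Strength was not matched: these 3064 had a median wild-type fold of 3.30, and the 4 HoxD peaks had 5.22, 5.38, 6.23 and 13.2. This comparison was made after the values were seen. DelCBS7-10 had 2 further CTCF peaks in this interval without a wild-type peak, in Hoxd13 (7.19, 1120 bp wide) and in Hoxd11 (6.14, 1086 bp wide). The median width of run peaks in wild type was 312 bp.

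**Figure D5:**
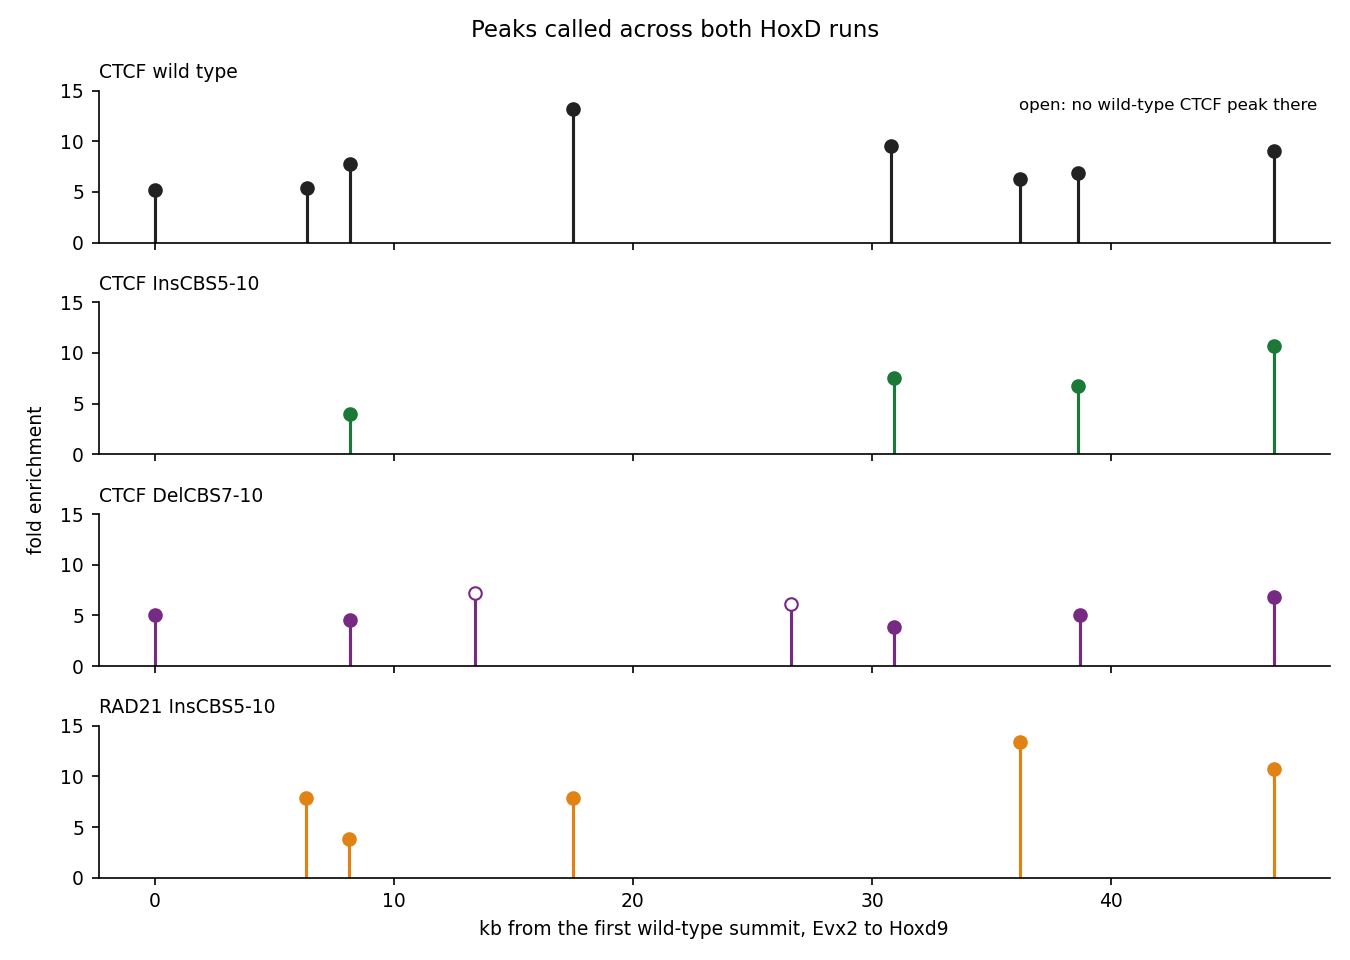
Fold enrichment of every peak called across the HoxD runs in each of the 4 lists, against kb from the first wild-type summit. At 6.37, 17.5 and 36.2 kb wild-type CTCF and RAD21 have peaks and both mutant CTCF lists have none, and open circles mark the 2 DelCBS7-10 peaks at 13.4 and 26.6 kb without a wild-type peak.

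Of the body axis genes listed, 5 of 18 were in runs. These held 21 peaks, with 12 in InsCBS5-10 (57.1%), 17 in DelCBS7-10 (81.0%) and RAD21 at 9 (42.9%), against 63.0%, 65.8% and 38.9% of all wild-type peaks. The longest was at Fgf15, a fibroblast growth factor, where wild-type folds of 7 peaks were 2.83 to 7.17. InsCBS5-10 held 3, DelCBS7-10 6 and RAD21 3. Imprinted genes, expressed from a single parental copy, had 4 of 24 genes in runs, and of their 12 peaks InsCBS5-10 held 11 (91.7%), DelCBS7-10 10 (83.3%) and RAD21 5 (41.7%). The run in Kcnq1, a potassium channel gene, had folds of 4.65, 2.56 and 5.17, all found in both mutants, with RAD21 at the last (9.22).

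The other gene families are given beside the 11% of 19052 protein-coding genes that overlapped a run. Calls are to be read beside 63.0% (InsCBS5-10), 65.8% (DelCBS7-10) and 38.9% (RAD21) of all wild-type peaks. Zinc finger genes had 37 of 375 genes in 43 runs, with a median fold of 3.40, 46.1% found in each mutant and RAD21 at 30.6% of 180 peaks. Immunoglobulin and T cell receptor segments had 38 of 658 in 19 runs, with a median of 3.25, and 45.0%, 42.5% and 20.0%. Olfactory receptors had 2 of 1037 genes in runs and vomeronasal receptors 1 of 359. The UDP-glucuronosyltransferases had 6 of 19 genes in runs and shared 1 run of 3 peaks across Ugt1a genes, of which InsCBS5-10 held 2, DelCBS7-10 3 and RAD21 1. Of MHC genes, H2-T3 had a run of 3 peaks with 1 found in each mutant. Histone and keratin genes of the lists were in 0 runs.

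Among runs of 5 or more peaks, those found completely in both mutants and with the most peaks included, beside the Ifnz array, runs at Smug1, Rpl14 and Nudt3. At Smug1, a DNA repair glycosylase gene, 7 peaks had wild-type folds of 3.97 to 12.6, with RAD21 at 5. At Rpl14, a ribosomal protein gene, 7 peaks had 4.39 to 9.30, with RAD21 at 4. Across Nudt3, Rps10 and Pacsin1, 7 peaks had 3.50 to 12.6, and RAD21 was called at the strongest alone (8.11).

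The 56 runs with no peak in either mutant had a median fold enrichment of 2.98 (middle of the runs' medians, which went from 2.12 to 4.80), against 5.86 over all runs, and 47 of them held 3 peaks. Of runs of 5 or more, all 6 peaks at the predicted gene Gm3411 on chromosome 14 (folds 2.21 to 2.97) were missing, as were 6 of 7 at the segment Ighv1-75 (2.12 to 3.97) and 5 of 6 at Zfp980 (2.2 to 3.95). Near Gm29258 on chromosome 7, 6 of 7 peaks were missing (2.38 to 3.98), and the one found in both mutants was the strongest (10.6). A run near Cd82, a tetraspanin gene, had higher wild-type folds of 4.1, 5.02, 5.35, 9.79, 3.05 and 4.71. Both mutants held the fourth alone, at 5.70 and 6.94. RAD21 was called in InsCBS5-10 at the second (3.73) and the third (6.62), which lacked CTCF there.

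A pair of other evenly spaced runs was singled out with the Ifnz array after the values were seen. On chromosome 6, 9 peaks over predicted genes (Gm40369 to Gm40363) lay 4.28 kb apart on average, with a standard deviation of 0.0317 of the mean. InsCBS5-10 held 8, DelCBS7-10 9 and RAD21 0. Near Zswim2 on chromosome 2, 5 peaks lay 5.79 to 5.83 kb apart (0.00331 of the mean) at folds of 3.06 to 4.84, with 2 in InsCBS5-10, 0 in DelCBS7-10 and RAD21 at 1. The next value of this measure among runs of 5 or more was 0.141, at Prdm13, a gene for a transcription factor of the nervous system. All 5 Prdm13 peaks were found in DelCBS7-10, 2 in InsCBS5-10, and RAD21 at 0.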

How the data were processed

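The deposited files are narrowPeak lists made by the authors for each library, with cutadapt 4.1, MACS2 2.2.7.1 and build mm10 per the submitters' processing notes. For the aligner, mapping filter, control and caller options: not given in the sources used here. The fold enrichment deposited by the authors is a ratio within a library, and the deposited −log10 q was also computed within a library. Read depth is unknown, and a missing peak was not called rather than shown to be absent. A RAD21 list without a sample (1 list) was not used.

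Groups came from the sample titles. Peaks were merged, linked into runs and matched with pandas 2.3.3, and shares have exact Clopper-Pearson 95% intervals from SciPy 1.17.1. The functions were tested on simulated lists. Gene positions and promoter windows came from RefSeq tables of GRCm38.p6. The members and gene lists were chosen with earlier results of these data known. Runs were named by a rule: the 12 with the most peaks, and, among runs of 5 or more, the 5 most often missing from both mutants, the 5 most often found in both and the 5 with the most RAD21 calls, plus the longest run of each gene list. Results were recomputed with other gaps, run sizes, −log10 q limits, overlaps and strength classes.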

Additional observations from a re-analysis of the deposited data

How the results depend on the processing

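No paired analysis was possible because each group had 1 library. The rule sets the counts: 902 runs of 3067 peaks at gaps of 5 kb, 4519 of 20023 at 20 kb, 937 of 4686 with 4 or more peaks, and 1618 of 5675 from wild-type peaks with −log10 q of 5 or more. The share of run peaks found in InsCBS5-10, in DelCBS7-10 and with RAD21, and the differences from isolated peaks in percentage points, were as follows where they moved beyond the interval of the main value. With gaps of 5 kb the shares were 65.2%, 67.6% and 35.5% and the differences 15.5, 14.5 and 0.290. With 4 or more peaks they were 66.2%, 68.5% and 36.1%, and the RAD21 difference was 0.880. With wild-type −log10 q of 5 or more they were 82.9%, 85.0% and 46.5%, and the differences 4.58, 3.95 and -9.47, so the RAD21 difference reversed. Overlap of 50% of the peak gave 64.9%, 67.4% and 33.8%, summits within 200 bp gave 65.8%, 67.6% and 36.9%, and other lists at −log10 q of 5 or more gave 56.8%, 58.1% and 30.8%. Isolation beyond 100 kb gave differences of 24.9, 23.7 and 5.96. Classes of fold enrichment gave 10.3, 9.49 and -3.58. The following were chosen after seeing the data. Classes of −log10 q gave 0.768, 0.315 and -12.8. Without runs of 7 or more peaks the CTCF shares were 69.3% and 71.4%. Without runs of median fold under 3 the shares were 71.5%, 74.0% and 39.5%, and the CTCF differences 21.8 and 20.9. The cause of these shifts was not tested. The other 30 values stayed within the interval, or for counts within 1.5 times. Unknown read depth limits every comparison of calls between lists.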
